A study of Caenorhabditis elegans with 6 samples.

Results

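The enzymes that add and remove acetyl groups on histones were followed in RNA sequencing of *Caenorhabditis elegans* gonads that carry or lack a working *set-2* gene. The set was given by name and holds 9 genes of the 46772 counted. Of these, 4 encode deacetylases, *hda-1*, *hda-2*, *hda-3* and *sir-2.1*, and 5 encode acetyltransferases, *cbp-1*, *mys-1*, *mys-2*, *mys-4* and *pcaf-1*. All 9 passed the filter on low counts, as did 9431 genes in all. Each was found by its WormBase identifier in all 6 libraries. The 2 groups were WT, the N2 strain, and set-2(bn129), animals homozygous for a loss-of-function allele of the worm SET1 homologue, with 3 libraries of each from young adults. The mutants came from heterozygous mothers, and may have developed with a maternal supply of *set-2* product. Each library pooled gonads of several animals, cut at the elbow to keep the distal arm. No other allele or agent is named for either group.

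Acetylation of lysines on histone tails neutralizes their charge and is read by bromodomain proteins, and it is enriched together with H3K4 methylation at the promoters of active genes. Acetyltransferases use acetyl-CoA as donor and fall into the CBP/p300, GCN5/PCAF and MYST families. Class I deacetylases are zinc enzymes that work inside corepressor complexes such as NuRD, SIN3 and CoREST, while sirtuins consume NAD+. In the germline these enzymes act on chromatin through mitotic proliferation and meiosis.

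Libraries held 23403396 to 30724547 counts. The members were well covered, with 566 to 10691 reads per gene and library. *set-2* itself was measured at 154 ± 6.21 CPM (SD, n = 3) in WT and at 93.5 ± 5.98 (SD, n = 3) in set-2(bn129), in which every library was lower than any WT library. CPM are counts scaled to a common library size, after TMM normalization, and are not corrected for gene length. The 12 listed germline markers summed to 4073 to 4353 CPM in WT and 3950 to 4302 in set-2(bn129), and none was at 0. At an edgeR adjusted p of at most 0.05, *him-3* was higher (log2 fold change 0.39) and 4 were lower. These were *gld-1*, *pgl-3*, *mex-3* and *daz-1*, at -0.23 to -0.11. The 7 oocyte markers summed to 7557 to 7647 CPM in WT and 7425 to 7639 in set-2(bn129), with 1 lower. Over all genes tested, 41.4% passed. The makeup of germ cell stages was not tested. Sperm markers summed to at most 3.44 CPM in any library, with 4 of the 10 at 0 in every WT library and 4, not all the same genes, at 0 in every set-2(bn129) library. Muscle and intestine markers differed with genotype. The 13 muscle markers summed to 271 to 469 CPM in WT against 190 to 221 in set-2(bn129), and the 12 intestine markers to 255 to 673 against 75.9 to 175, with none at 0. All 13 muscle markers and all 10 intestine markers tested fell. Both WT sums were smallest in replicate 1. The 6 somatic gonad markers summed to 59.4 to 77.0 CPM in WT, highest in replicate 1, against 35.1 to 38.1 in set-2(bn129), with none at 0. The largest part was *inx-8*, with a mean of 51.2 CPM in WT and 21.7 in set-2(bn129), the 1 called of 4 tested. *ceh-18*, *inx-9* and *lim-7* were at -0.71, -0.19 and 0.46 on the log2 scale and did not pass. The 9 hypodermis markers summed to 41.4 to 82.6 against 33.5 to 36.8, with 1 at 0 in every WT library and 2 in every set-2(bn129) library. Nearly all of this was *col-19*, with a mean of 64.7 CPM in WT and 34.6 in set-2(bn129). The 10 neuron markers summed to 78.2 to 84.0 against 71.4 to 74.6. Most of this was *snb-1*, with a mean of 66.2 CPM in WT and 62.6 in set-2(bn129) (edgeR adjusted p = 0.161). Of the 8 neuron markers tested, 3 were lower, 0 were higher and 5 did not pass. Those lower were *egl-3*, *egl-21* and *ric-4*, at levels far under that of *snb-1*. They were at -1.63, -1.44 and -0.805 on the log2 scale (edgeR adjusted p = 6.97e-04, 0.00186 and 0.0256). The part of somatic RNA in the results below was not tested, except where a value is given for it.

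Expression of these enzymes differed between genotypes by small amounts and in both directions within each class. In set-2(bn129) gonads *hda-2*, *mys-1* and *mys-4* rose by 11.9% to 15.4%, whereas *hda-1* fell by 22.2%, *cbp-1* by 11.2% and *pcaf-1* by 7.91%. *hda-3*, *sir-2.1* and *mys-2* did not pass the test. These calls come from edgeR's quasi-likelihood test at an adjusted p of at most 0.05 (Benjamini-Hochberg over all 9431 genes, n = 3 libraries per genotype). Thus 6 of the 9 members were called, against 41.4% of all genes tested. They split into 3 higher, where 20.3% of all genes were called higher, and 3 lower, where 21.1% were called lower. Among the genes of similar abundance the share was 45.4% to 48.6%, in the upper 2 of 5 classes of mean CPM, which held 8 of the 9 members. The 3 libraries of one genotype all lay on one side of the other 3 for 7 of the 9 members, and for 52.9% of all genes tested. These shares are given as a description, and no test was made of 9 genes against the rest. In gonad RNA, fewer cells of a type and less RNA per cell cannot be told apart.

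**Figure D1:**
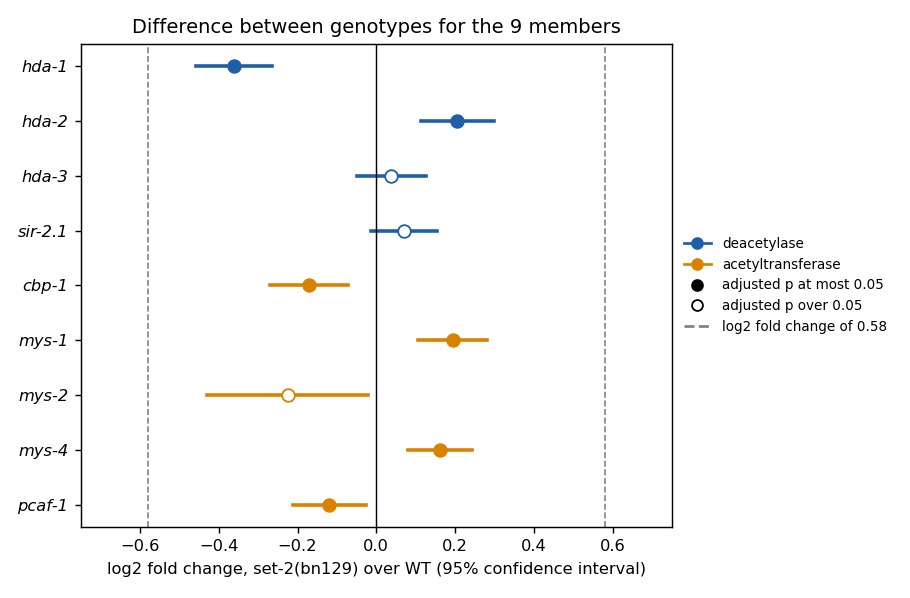
Log2 fold change of set-2(bn129) over WT for each member, with its 95% confidence interval from edgeR, for deacetylases (blue) and acetyltransferases (orange); filled points passed an adjusted p of 0.05. Members of both classes lie on both sides of 0, and every interval stays inside the dashed lines at a log2 fold change of 0.58.

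All changes were small. The study's fold threshold, 0.58 up or down on the log2 scale, was passed together with the adjusted p by 15.3% of genes tested and by 0 of the 9 members. No member reached that fold at any p with edgeR, or with DESeq2, and over 14 alternatives the members' values reached from -0.50 to 0.24. The 95% confidence intervals of the members reached from -0.46 for *hda-1* to 0.30 for *hda-2*. Their median absolute log2 fold change was 0.17, beside 0.20 over all genes tested and 0.11 in each of the upper 2 classes of abundance. The median of the signed values was 0.038 over the members and -0.0009 over all genes tested.

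Among the deacetylases, *hda-1* carried the largest change of the set. It encodes the class I enzyme closest to mammalian HDAC1 and HDAC2, which is found with the Mi-2 homologue LET-418 and is required for embryonic development. *hda-1* (WBGene00001834) lies on chromosome V from 14525389 to 14527411 of WBcel235, on the plus strand, with 4 exons and no overlapping gene. It was measured at 144, 141 and 133 CPM in WT replicates 1, 2 and 3, and at 104, 109 and 113 CPM in set-2(bn129) replicates 1, 2 and 3. The genotypes did not overlap, and the gap between them was wider than the whole range within either. *hda-1* fell by 0.36 (log2, with an SE of 0.044; edgeR adjusted p = 1.13e-04). WT replicate 1, the WT library with the smallest muscle and intestine sums, was the highest library for *hda-1*. That library also had the highest somatic gonad sum, most of which was *inx-8*. When the mean log2 level of muscle and intestine genes was added as a covariate, *hda-1* was at -0.50 (edgeR adjusted p = 0.0121) and was the 1 member still called. That covariate was higher in every WT library than in any set-2(bn129) library, so it also takes up part of any effect of genotype.

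*hda-2*, a second class I enzyme, moved the other way. Its gene (WBGene00001835, chromosome II, 8020780 to 8022561, minus strand) shares 0.358% of its exon bases with *zyg-11* on the opposite strand. The level of *hda-2* was 65.2, 63.4 and 63.6 CPM in WT replicates 1 to 3 and 72.9, 77.0 and 72.0 CPM in set-2(bn129) replicates 1 to 3. All mutant libraries were higher than all WT libraries. *hda-2* rose by 0.21 (log2, with an SE of 0.042; edgeR adjusted p = 0.00256).

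*hda-3* and *sir-2.1* had the smallest differences of the set. *hda-3* encodes another class I deacetylase (WBGene00001836, chromosome I, 11912793 to 11917712, minus strand, no overlapping gene). It had 74.2, 78.3 and 79.0 CPM in WT and 79.1, 79.8 and 79.0 CPM in set-2(bn129), replicates in order. Replicates 1 and 2 of set-2(bn129) lay just above the WT range and replicate 3 inside it, with a log2 fold change of 0.038 (95% confidence interval -0.049 to 0.13, edgeR adjusted p = 0.466). *sir-2.1*, the NAD+-dependent homologue of mammalian SIRT1, is on chromosome IV from 10363318 to 10366229 on the minus strand (WBGene00004800) and shares 1.08% of its exon bases with *ugt-59* on the opposite strand. WT replicates 1 to 3 had 105, 104 and 111 CPM of *sir-2.1*, and set-2(bn129) replicates 1 to 3 had 112, 113 and 111 CPM. The genotypes did not overlap, by a narrow margin between replicate 3 of each. The difference did not pass the test, with a log2 fold change of 0.072 (interval -0.012 to 0.16, edgeR adjusted p = 0.155), so a rise of more than 0.16 lies outside the interval.

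**Figure D2:**
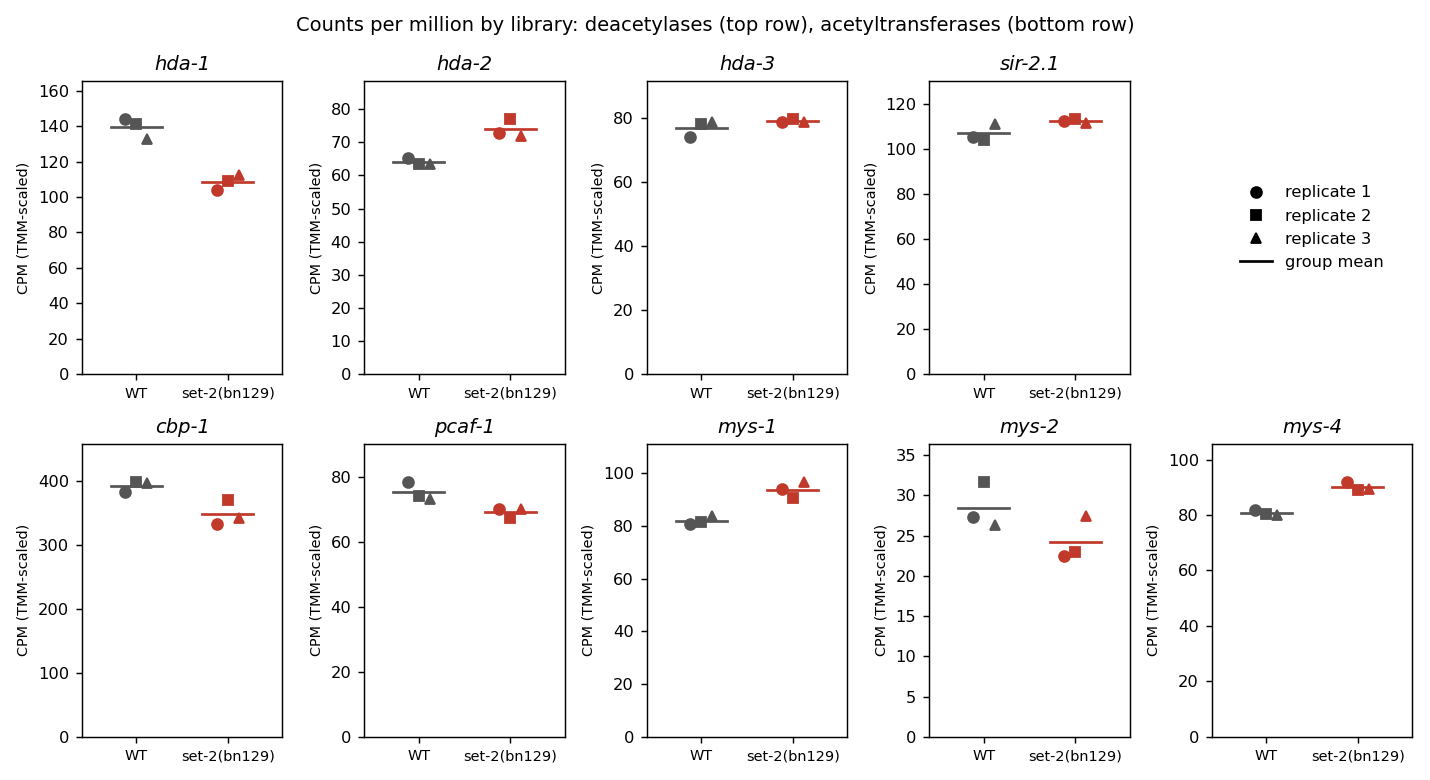
CPM (TMM-scaled, axes from 0) of the 4 deacetylases in the top row and the 5 acetyltransferases in the bottom row, by genotype, with 1 point per library and a line at the mean of 3. The groups are well apart for *hda-1* (133 to 144 against 104 to 113 CPM), close for *sir-2.1* and overlapping for *hda-3* and *mys-2*.

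Of the acetyltransferases, the most abundant by count was *cbp-1*, the homologue of CBP and p300, which in the embryo promotes differentiation. Its gene (WBGene00000366) has the most exon sequence of the set and lies on chromosome III from 9766509 to 9774825 on the plus strand, with 7132 bases of exon in 12 blocks, 1.1% of them shared with *R10E11.13* on the same strand. *cbp-1* was at 384, 399 and 397 CPM in WT and 334, 371 and 344 CPM in set-2(bn129), replicates in order. Every mutant library was lower than every WT library, with set-2(bn129) replicate 2 nearest to the WT range. *cbp-1* fell by 0.17 (log2, with an SE of 0.045; edgeR adjusted p = 0.0104). *pcaf-1*, the GCN5/PCAF homologue (WBGene00021636, chromosome I, 3516450 to 3523418, plus strand), was also lower. It shares 4.12% of its exon bases with *Y47G6A.19* on the opposite strand, the largest overlap in the set. Its libraries were at 78.5, 74.3 and 73.1 CPM in WT and at 70.2, 67.5 and 70.3 CPM in set-2(bn129). The genotypes did not overlap, and *pcaf-1* fell by 0.12 (log2, with an SE of 0.043; edgeR adjusted p = 0.0436). This call was the least stable of the 6. It was lost when any library other than WT replicate 3 was left out, with an adjusted p of 0.069 to 0.169, and with DESeq2's Wald test, at 0.144.

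Of the 3 MYST enzymes of the set, *mys-1* and *mys-4* rose and *mys-2* did not pass the test. *mys-1*, the TIP60 homologue that acts in the NuA4-type complex, is on chromosome V from 7081545 to 7084662 on the minus strand (WBGene00007029) and shares 2.25% of its exon bases with *npa-1* on the opposite strand. *mys-1* was at 80.6, 81.7 and 83.9 CPM in WT and 94.2, 90.6 and 96.7 CPM in set-2(bn129), without overlap. It rose by 0.19 (log2, with an SE of 0.040; edgeR adjusted p = 0.00267). *mys-4* (WBGene00007914, chromosome I, 8333082 to 8336727, plus strand, no overlapping gene) had the tightest WT replicates of the set, with a coefficient of variation of 1.23%. The values of *mys-4* were 81.8, 80.2 and 79.9 CPM in WT and 91.9, 89.2 and 89.5 CPM in set-2(bn129). All mutant libraries were higher, and *mys-4* rose by 0.16 (log2, with an SE of 0.037; edgeR adjusted p = 0.00465).

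*mys-2*, the MOF homologue, was the lowest and the most variable member. It lies on chromosome I from 14118751 to 14127202 on the plus strand (WBGene00010537) with no overlapping gene. WT replicates 1 to 3 gave 27.3, 31.7 and 26.3 CPM and set-2(bn129) replicates 1 to 3 gave 22.5, 22.9 and 27.4 CPM. The groups overlapped, since set-2(bn129) replicate 3 lay above WT replicates 1 and 3, and the coefficient of variation was 10.1% in WT and 11.2% in set-2(bn129). Its log2 fold change was -0.22, with an interval of -0.43 to -0.020 and an edgeR adjusted p of 0.0742. Without set-2(bn129) replicate 3 the adjusted p was 0.0182, and the log2 fold change was -0.32. Without WT replicate 2 it was -0.14 (edgeR adjusted p = 0.289).

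To order the members by transcript level, CPM were divided by the length of the union of annotated exons in kilobases. In WT gonads *hda-1* stood first at 75.8 ± 3.16 CPM per kilobase (SD, n = 3), above the range of every other member and above 83.7% of the 9399 tested genes with an annotated length. A group of 3 came next, *cbp-1* at 55.2 ± 1.13, *sir-2.1* at 52.6 ± 1.89 and *mys-1* at 51.3 ± 1.03 (each SD, n = 3), whose neighbours overlapped. Below them stood *hda-3* at 44.6 ± 1.49 and *hda-2* at 38.2 ± 0.58 (SD, n = 3), which were apart from each other. *mys-4* and *pcaf-1*, at 30.1 and 29.3, overlapped. *mys-2* was last at 14.4 ± 1.45 (SD, n = 3), the 1 member under the median of 19.7 over all genes tested.

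In set-2(bn129) gonads the upper part of this order was rearranged. *hda-1*, at 59.0 ± 2.46 CPM per kilobase (SD, n = 3), overlapped *mys-1* at 58.7 ± 1.93 (SD, n = 3), and *sir-2.1* followed at 55.2 ± 0.449 (SD, n = 3). *cbp-1* moved from the second place to the fourth, at 49 ± 2.74 (SD, n = 3), apart from *sir-2.1* above it. *hda-3* and *hda-2*, distinct in WT, overlapped at 45.8 and 44.1. The lower 3 places were unchanged, with *mys-4* and *pcaf-1* now apart, at 33.7 and 26.9, and *mys-2* at 12.3.

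**Figure D3:**
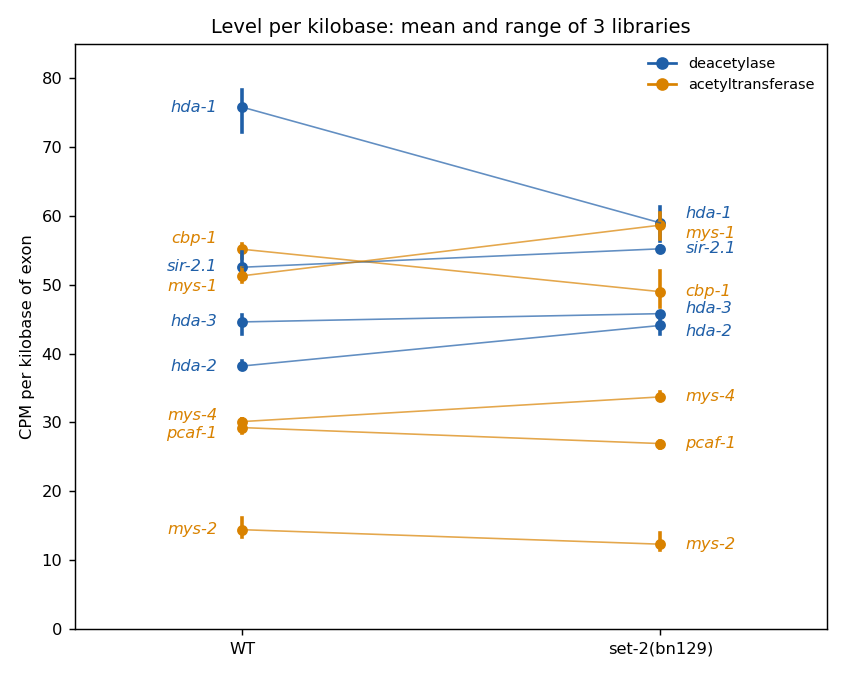
Level in CPM per kilobase of exon (axis from 0) of each member in WT and set-2(bn129) gonads, as the mean (point) and range (vertical line) of 3 libraries, deacetylases in blue and acetyltransferases in orange. *hda-1* stands alone at 75.8 in WT and beside *mys-1* at 59.0 in set-2(bn129).

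Ratios between members of one library do not depend on how libraries are scaled, and they are given here as descriptions. The level of *hda-2* per kilobase was 0.497, 0.492 and 0.525 of that of *hda-1* in WT replicates 1 to 3, and 0.771, 0.774 and 0.70 of it in set-2(bn129) replicates 1 to 3. For *hda-3* the ratio to *hda-1* was 0.548 to 0.632 in WT and 0.745 to 0.810 in set-2(bn129). The makeup of class I deacetylase transcripts thus shifted, with *hda-1* contributing 47.8% ± 1.29 (SD, n = 3) of the summed level of the 3 genes in WT and 39.6% ± 1.1 (SD, n = 3) in set-2(bn129). The share of *hda-2* went from 24.1% ± 0.385 to 29.6% ± 0.872 (SD, n = 3 each).

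Summed over the 3 class I genes, the level was 156 to 160.1 CPM per kilobase in WT and 146 to 151 in set-2(bn129). Thus the rise of *hda-2* was smaller than the fall of *hda-1*. With *sir-2.1* added, the 4 deacetylases summed to 211 ± 0.627 in WT and 204 ± 3.09 in set-2(bn129) (SD, n = 3 each), without overlap. With library sizes taken as total counts without the 10 most abundant genes, the libraries overlapped (247 to 249.6 against 241 to 252), and with upper quartile normalization they also did. The 5 acetyltransferases summed to 180.3 ± 1.49 and 181 ± 2.4 CPM per kilobase (SD, n = 3 each), with overlapping libraries that were apart with 1 of the 3 other scalings tried, total counts without the 10 most abundant genes (211 to 213 against 214 to 219), while 4 of the 5 were called, 2 in each direction. Their makeup differed. *cbp-1* gave 30.6% ± 0.473 of this sum in WT and 27.1% ± 1.57 in set-2(bn129), and *mys-1* gave 28.5% ± 0.622 and 32.5% ± 0.859 (SD, n = 3 each). The 3 MYST members summed to 94.8 to 97.1 CPM per kilobase in WT and to 102 to 108 in set-2(bn129), higher in every mutant library, also with the 3 other scalings. The ratio of acetyltransferase to deacetylase sums was 0.846 to 0.861 in WT libraries and 0.869 to 0.896 in set-2(bn129) libraries. The ratio of *mys-4* to *mys-1* was 0.587 ± 0.0184 in WT and 0.575 ± 0.0191 in set-2(bn129) (SD, n = 3 each), with overlapping libraries.

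Other genes of histone acetylation were listed by function, 53 in all, of which 50 were tested. Among these 50, 17 rose and 10 fell (edgeR adjusted p of at most 0.05), or 27 called beside 41.4% over all genes, and their median log2 fold change was 0.070. With the covariate for muscle and intestine genes, 6 of the 27 kept the call (*hda-6*, *hat-1*, *elpc-3*, *lsy-12*, *ruvb-1* and *dcp-66*), 20 lost it and *acly-2* changed sign. The counts of each list below stand beside the same 41.4%. Those named below are the genes past both thresholds and those with the smallest p in each list. Further names were taken after their values were seen, to account for small counts.

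Of the 6 other deacetylase genes tested, 3 rose and 1 fell. The class II gene *hda-6* rose from 229 ± 8.39 to 265 ± 7.61 CPM (SD, n = 3 each) (log2 fold change 0.21; edgeR adjusted p = 0.00175), and *hda-10* rose by 0.23. *sir-2.3*, which encodes a mitochondrial sirtuin, rose by 1.38 on the log2 scale from 0.487 ± 0.137 to 1.29 ± 0.314 CPM (SD, n = 3 each; edgeR adjusted p = 0.00498), levels far under those of the members. Its paralogue *sir-2.2* had a log2 fold change of -0.064, and reads that fit both genes could be lost with those of low mapping quality. *hda-4*, the class IIa gene, fell by 0.45 from 4.86 CPM, with an adjusted p of 0.0462 that rose to between 0.0529 and 0.151 when any 1 library was left out.

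Of the 5 other acetyltransferase genes tested, 2 rose and 2 fell. *hat-1*, the type B enzyme that acetylates new histone H4, rose by 0.26 (edgeR adjusted p = 0.00110), and *elpc-3*, the catalytic subunit of Elongator, rose by 0.21. *lsy-12*, a MYST enzyme of the MOZ type, fell by 0.31 from 96.8 ± 4.35 to 77.8 ± 2.44 CPM (SD, n = 3 each; edgeR adjusted p = 2.73e-04), and *taf-1*, a subunit of TFIID, fell by 0.20. Without set-2(bn129) replicate 1 the log2 fold change of *taf-1* was -0.12. With *mys-1* and *mys-4* higher, the MYST genes therefore changed in both directions.

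Partners of the acetyltransferases belong to different complexes, and not all of those listed act with *mys-1*. Of 11 such genes, all tested, 5 rose and 2 fell. *ruvb-1*, an AAA+ ATPase shared by chromatin complexes, rose by 0.39 from 209 ± 4.74 to 274 ± 5.60 CPM (SD, n = 3 each; edgeR adjusted p = 1.8e-05). *ekl-4*, the DMAP1 homologue, rose by 0.23 (edgeR adjusted p = 0.00110), and *lin-49*, *gfl-1* and *ada-2* rose by 0.16, 0.15 and 0.11. *epc-1*, the Enhancer of Polycomb homologue, fell by 0.33, and *ssl-1*, an ATPase of the p400 and SWR1 type, fell by 0.27. The TRRAP homologue *trr-1* had a log2 fold change of 0.0056, with 806 ± 19.9 CPM in WT and 809 ± 49.8 in set-2(bn129) (SD, n = 3 each). Partners of the acetyltransferases were thus called in both directions. The calls of *gfl-1* and *ada-2* were lost with DESeq2's Wald test (adjusted p = 0.0844 and 0.0982) and when single libraries were left out, with an edgeR adjusted p of up to 0.112 without WT replicate 2 and 0.140 without WT replicate 3.

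Of 17 partners of the deacetylases, all tested, 5 rose, 3 fell and 9 did not pass. *dcp-66*, the p66 subunit of NuRD, fell by 0.61 from 82.6 ± 4.23 to 54.2 ± 2.60 CPM (SD, n = 3 each; edgeR adjusted p = 1.0e-05), the largest fall in this list. *mbd-2* and *mep-1*, further partners of the Mi-2 proteins, fell by 0.26 and 0.14. *chd-3*, a paralogue of *let-418*, rose by 0.63 from 17.7 ± 1.18 to 27.5 ± 1.82 CPM (SD, n = 3 each; edgeR adjusted p = 1.14e-04). *let-418*, at 571 CPM in WT, had a log2 fold change of -0.0054. The histone-binding subunit *lin-53*, the scaffold *sin-3*, the CoREST homologue *spr-1* and *hcf-1* rose by 0.13 to 0.15. The adjusted p rose over 0.05 for *lin-53* without WT replicate 1 (0.0606), for *sin-3*, *spr-1* and *mep-1* without WT replicate 2 (0.0505 to 0.0611), and for *mbd-2* without replicate 3 of either genotype (0.062 and 0.0615). NuRD subunits were therefore called in both directions, like the class I enzymes themselves. The 8 partners called stand beside 41.4% over all genes tested. With the muscle and intestine covariate *dcp-66* and *hda-1* kept the call. With it *chd-3* (edgeR adjusted p = 0.0921), *lin-53* (0.0846) and *hda-2* (0.349) lost the call, so calls in both directions were not seen there. Their log2 fold changes stayed positive, at 0.61, 0.28 and 0.18 in the same order.

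Of the 8 bromodomain genes tested, 1 rose and 1 fell. *baz-2* rose by 0.61 from 29.1 ± 1.61 to 44.4 ± 1.95 CPM (SD, n = 3 each; edgeR adjusted p = 2.6e-05), while *bet-1*, a double bromodomain protein that maintains cell fates, fell by 0.19 (edgeR adjusted p = 0.00132). Of the 3 genes that supply acetyl-CoA, the ATP citrate lyase genes *acly-1* and *acly-2* went in opposite directions, by 0.17 and -0.11 on the log2 scale (edgeR adjusted p = 0.0125 and 0.0424). The call of *acly-2* was lost in 9 of 14 alternatives, and that of *acly-1* without WT replicate 3 (0.052) and with the covariate, with which it stood at 0.011 on the log2 scale (edgeR adjusted p = 0.966).

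**Figure D4:**
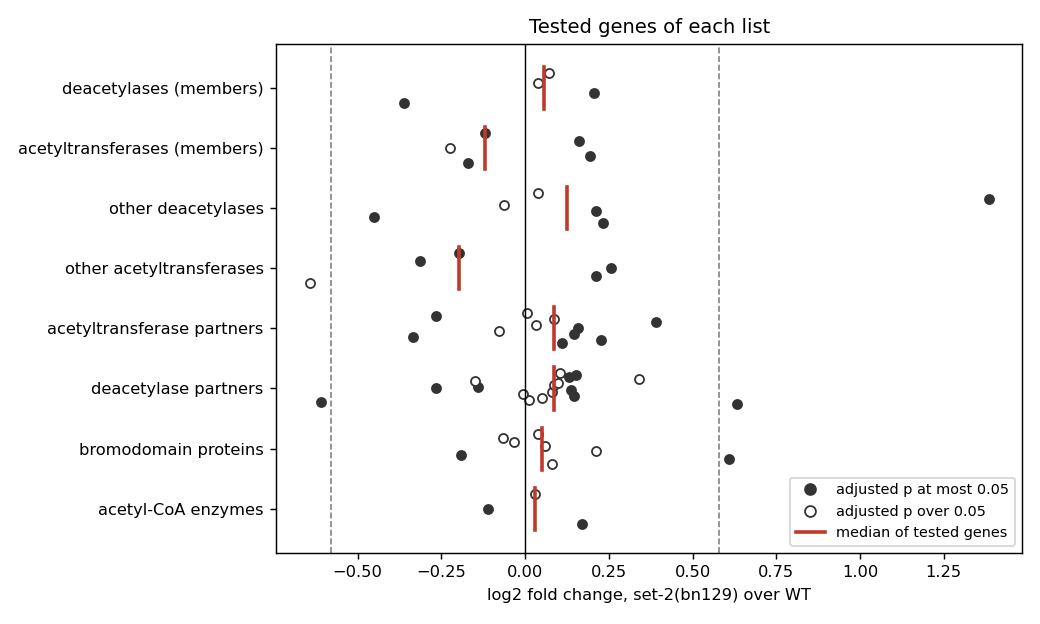
Log2 fold change of set-2(bn129) over WT for every tested gene of the 2 member classes and of the 6 further lists, 1 point per gene, filled where the adjusted p was at most 0.05, with a red line at each list's median and dashed lines at 0.58. Most points lie inside the dashed lines, and each list holds genes on both sides of 0.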

How the data were processed

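The authors mapped single reads from libraries depleted of ribosomal RNA to genome release WS254 with STAR, removed reads of low mapping quality, and deposited raw counts per gene made with htseq-count, whose strand setting is not given in the sources used here. The labels call the RNA polyadenylated, although their protocol names depletion. Removal of poorly mapped reads can lower the counts of genes with similar copies. A further deposited table, with gene numbers from the authors' own comparison, was not used. Groups and replicates came from the sample titles.

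Counts were tested with edgeR 4.0.16 (R 4.3.3), using filterByExpr, TMM normalization and the quasi-likelihood test on genotype, with Benjamini-Hochberg adjustment over 9431 genes. The study used DESeq2, which serves here as an alternative (version 1.42.0). Confidence intervals are at 95% and come from the coefficient without a prior count, and fold changes are edgeR's. Positions, exon lengths and overlaps are from the Ensembl annotation of WBcel235. Other alternatives were 3 scalings, 2 filters, a replicate block, each library left out, a log2 fold threshold of 1, a covariate for muscle and intestine genes and transcript length for exon length. Named genes outside the 9 members were those past both thresholds and the 2 with the smallest p in each list, and further names were taken after their values were seen. The members and lists were chosen with earlier results of these data known. Depth was 23403396 to 30724547 counts per library. Replicates of one genotype differed by more than sampling noise (chi-square per degree of freedom between 9.30 and 28.6). On simulated counts for this comparison over 9431 genes, edgeR called 30 of 38 genes with a simulated log2 fold change of -1, 28 of 40 at -0.58 and 18 of 40 at -0.3. It called 23 of 39 at 0.58, 16 of 39 at 0.3 and 10 of 9074 unchanged genes. Few genes were changed in the simulation, drawn over all abundances, whereas 41.4% were called in the data. These rates therefore do not give the power for the members. P-values set the difference between genotypes against the spread between these 3 libraries per genotype, with the estimate of spread shared in part across genes.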

Additional observations from a re-analysis of the deposited data

How the results depend on the processing

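No member changed direction in any of the 14 alternatives run on it. *hda-1* was called in all 14. *hda-2*, *cbp-1*, *mys-1* and *mys-4* were called in 13 each, the exception being the covariate for muscle and intestine genes, with which their adjusted p lay between 0.195 and 0.699. Their log2 fold changes with it were 0.18, -0.080, 0.23 and 0.12 in that order, against 0.21, -0.17, 0.19 and 0.16 without it. With that covariate 1 member was called, 192 genes were called higher and 444 lower, and 407 passed both thresholds, and *acly-2* turned to 0.0057 on the log2 scale. Of the 27 called genes in the further lists 20 lost the call with it, among them *chd-3* (adjusted p = 0.0921), *baz-2* (0.0869), *ekl-4* (0.173), *epc-1* (0.107) and *sir-2.3* (0.127), while 6 kept it. The covariate and genotype cannot be told apart fully in 6 libraries. *pcaf-1* kept its call in 3 of 14, and its adjusted p reached 0.178. *mys-2* gained a call with no low count filter (adjusted p = 0.0343) and without set-2(bn129) replicate 3. *hda-3* and *sir-2.1* were called in 0 of 14, with an adjusted p of at least 0.197 and 0.0609.

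Without each library in turn, 5 to 6 members were called, 1421 to 1758 genes higher, 1566 to 1958 lower and 1233 to 1619 past both thresholds. At a log2 fold threshold of 1 the last number was 836. Deviations of same-numbered libraries from their group means did not go together (r of -0.11, -0.044 and -0.20 across genes). Such a check cannot exclude pairing by number with 3 libraries per genotype. With a replicate block 5 members were called, without *pcaf-1* (adjusted p = 0.0661), and 1657 genes higher and 1801 lower. Summed levels under other scalings were added after seeing the data. The order of levels by longest transcript was as by exon length for all 9 members. At least 566 reads lay behind every member's value in a library.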
